A study of Rattus norvegicus with 9 samples.

Results

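The mitochondrial genome transcripts described here are all rows of the deposited expression tables that lie on chromosome MT of the rat genome build mRatBN7.2. The rule found 37 rows of 30518, with 13 protein-coding rows, 2 rows of the size of ribosomal RNAs and 22 rows of the size of transfer RNAs, 28 of them on the plus strand and 9 on the minus strand. RNA had been sequenced from the pubococcygeus, one of the muscles that close the pelvis from below, taken from Sprague-Dawley females, in 9 libraries that make up 3 groups of 3. Blank rats had neither surgery nor treatment. SUI rats, a model of stress urinary incontinence, lost both ovaries and had the vagina stretched for 4 h by an 8 Fr balloon catheter that held 3 mL and was loaded with 120 g. Stimulated rats went through the same procedure and, from 1 week later, received pelvic floor electrical stimulation through the vagina, 30 min a session on 5 days a week for 2 weeks, with 20 mA pulses of 200 µs at 50 Hz. The SUI and stimulated groups thus share the operation and the loss of the ovaries, which cannot be told apart from each other in either comparison with the blank group. The column names of the SUI libraries read sham, while the sample titles give these rats the full procedure. The titles were followed, and every SUI value below rests on that reading. By the titles no group had a sham operation or a sham stimulation, so the current cannot be told apart from the handling. Each group had 8 rats, and how the 3 libraries relate to them is not given, so p-values rest on the spread among libraries, which may be partly technical.

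Mammalian mitochondrial DNA is a small circle that both strands transcribe from end to end as long precursor RNAs. Most genes lie on one strand, and tRNA genes sit between the others like punctuation, so that cutting out the tRNAs releases the mRNAs and rRNAs. The mRNAs encode core subunits of the respiratory chain and ATP synthase, whose remaining subunits come from nuclear genes, and muscle fibres hold many mitochondria. In bulk RNA a lower level of these transcripts can come from fewer mitochondria-rich cells, fewer mitochondria per cell or less RNA per mitochondrion, which cannot be told apart. The muscle label was checked against 8 fibre markers (Acta1, Ckm, Des, Ttn, Mb, Tnnt3, Actn3 and Mylpf), which summed to at least 80761 CPM (counts scaled to a library of fixed size) in each library. Of 5 listed markers of bladder and vaginal epithelium only 1, Krt8, was tested, and it stayed at or below 0.638 CPM. Krt5, Upk1b and Upk2 were at 0 or untested, and Krt14 matched no row.

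The row names need care, because 3 rows are called Mt-atp8 and 2 are called Mt-nd4l. All 3 Mt-atp8 rows (ENSRNOG00000033299) carry the coordinates MT 7758 to 8598, a span of 841 bases, yet the ratio of their counts to their FPKM gives lengths of 841, 784 and 1464 bases. The stretch that follows, 8599 to 9382, has no row of its own and is 784 bases long. In mammals that is the place of Co3, a core subunit of cytochrome c oxidase (complex IV), and the tables have no row named Mt-co3 or Mt-atp6. Both Mt-nd4l rows (ENSRNOG00000031053) span 9870 to 11537, and their lengths come out at 1668 and 1378 bases. Nd4l and Nd4 adjoin there, and no row is named Mt-nd4. The rows are therefore called by name and length below, and the split of reads among rows of 1 name is uncertain. Mt-nd5 (ENSRNOG00000029971, 11736 to 14061, plus strand) covers the whole of the minus-strand gene Mt-nd6 (ENSRNOG00000029042, 13543 to 14061), with 519 shared bases. The sources used here do not say if strand was used in counting, so reads of that pair cannot be told apart with certainty. For the same reason, the other minus-strand rows may hold reads of plus-strand precursors. The tRNA-sized and rRNA-sized rows bear only identifiers of the form AY172581 with a number. The 2 rRNA-sized rows are AY172581.9 (68 to 1025, 958 bases) and AY172581.24 (1094 to 2664, 1571 bases), in the places of the small and the large mitochondrial rRNA.

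Rows of the mitochondrial genome took 32.9%, 17.2% and 16.2% of all counts in blank replicates 1, 2 and 3. They took 14.8%, 16.3% and 13.4% in the SUI libraries and 17.7%, 16.1% and 16.6% in the stimulated libraries. Blank replicate 1 had a share well above every other library, and the other 8 lay within 13.4% to 17.7%. Blank replicate 1 was the shallowest library with 50833480 counts, and the deepest had 147650284, so counting error was small: the 95% Wilson interval of the share in blank replicate 1 was 32.92% to 32.95%, which covers counting error only. The mean share was 22.1% ± 9.39 (SD, n = 3) in the blank group, 14.8% ± 1.42 in the SUI group and 16.8% ± 0.828 in the stimulated group. Without blank replicate 1 the blank mean was 16.7% ± 0.760 (n = 2). The SUI minus blank difference of the means was -7.27 percentage points with that library and -1.86 without it, and the SUI and blank ranges overlapped with it and without it. The stimulated minus blank difference was -5.30 points with blank replicate 1 and 0.108 without it, so the sign of that difference rested on 1 library. Between stimulated and SUI libraries the difference was 1.97 points, with overlapping ranges. No test was applied to these sums over chosen rows.

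Nearly all of the share in these libraries fell on protein-coding rows. The 13 protein-coding rows held 98.2% to 99.2% of the mitochondrial counts of each library, the 2 rRNA-sized rows 0.678% to 1.63% and the 22 tRNA-sized rows 0.121% to 0.324%. Mt-co1, the catalytic core of cytochrome c oxidase, had the most counts of all mitochondrial rows in each of the 9 libraries. Mt-co1 took 5.63%, 5.37% and 4.85% of all counts in the blank libraries, 5.03%, 4.65% and 4.31% in the SUI libraries and 5.58%, 5.20% and 5.15% in the stimulated libraries. Stimulated libraries were all above SUI libraries, and blank replicate 1 was barely above stimulated replicate 1. With Mt-co1 left out, the mitochondrial share was 27.3% in blank replicate 1 against 9.13% to 12.2% in the others. The excess of blank replicate 1 thus lay almost wholly outside Mt-co1.

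**Figure D1:**
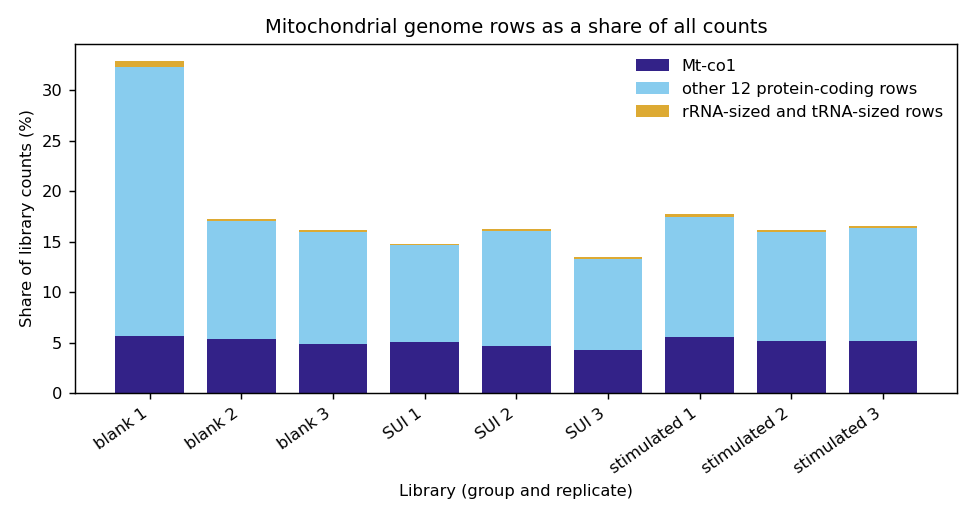
Stacked bars show the share of library counts (%, y axis) on mitochondrial genome rows in each of the 9 libraries (x axis), split into Mt-co1, the other 12 protein-coding rows, and the rRNA-sized and tRNA-sized rows. Blank replicate 1 reaches 32.9% and the other 8 lie between 13.4% and 17.7%, while the Mt-co1 part is 4.31% to 5.63% in all 9.

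The order of the transcripts was set on the FPKM scale, which corrects for length. Over the 8 libraries other than blank replicate 1, the median level of Mt-co1 was 26220 FPKM, followed by the 841-base Mt-atp8 row at 14817, the 784-base Mt-atp8 row at 14181 and Mt-co2 at 13821. The ranges of the last 3 overlapped over these libraries (12719 to 16103, 13183 to 17279 and 11810 to 15329), so their order is not resolved, while the Mt-co1 range of 22505 to 28857 lay above all of them. Mt-cyb, the core of complex III, came next at 10830.5 FPKM, and Mt-nd2, Mt-nd1 and the 1668-base Mt-nd4l row, of complex I, were at 9591, 7967 and 7648. The 1464-base Mt-atp8 row was at 4713 FPKM, Mt-nd3 at 3373 and Mt-nd5 at 2881. Mt-nd6, the only protein-coding row on the minus strand, was far below the other named mRNAs at 6.55 FPKM. The rRNA-sized rows were below all plus-strand mRNAs named here, at 566 FPKM for AY172581.24 and 490 for AY172581.9. How RNA was selected before sequencing was not examined. The levels of rRNA-sized and tRNA-sized rows beside the mRNAs are thus those of these libraries and may not be those of the muscle.

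Blank replicate 1 differed from the other 8 libraries in which transcripts it held, and not by a common factor. Of the 35 rows tested, 23 took a larger share of counts there than in any other library, 4 a smaller share than in any other, and 8 lay within the range of the others. Among tested nuclear rows 9.32% were above and 46.8% below all 8 others. Set against the median share of the other 8 libraries, Mt-co1 was 1.11-fold higher in blank replicate 1, Mt-nd2 1.75-fold, Mt-cyb 2.33-fold, Mt-nd1 2.66-fold, Mt-co2 3.39-fold and Mt-nd5 3.83-fold. Mt-nd6 was 6.67-fold higher, and AY172581.20 (14062 to 14130, minus strand), its tRNA-sized neighbour, 15.9-fold. In the other direction the 784-base Mt-atp8 row was 3.27-fold lower than the median of the others and Mt-nd3 1.43-fold lower. The same library had the lowest depth, the lowest TMM factor (0.744, a composition factor that scales its library total) and the lowest median correlation across genes with the rest (0.920, against 0.949 to 0.968), and the part of these in its mitochondrial share was not tested.

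Blank replicate 1 also differed at the rows whose reads are split. The 784-base row took 5.85% of the counts on the 3 Mt-atp8 rows there and 30.6% to 42.5% in the other libraries. The 1378-base row took 11.7% of the counts on the 2 Mt-nd4l rows in blank replicate 1, with 273777 counts, and at most 1.74% elsewhere. In SUI replicate 2 and stimulated replicate 3 that row held 13 and 14 counts beside 1875359 and 2056856 on its 1668-base partner. Summed over rows of a name, Mt-atp8 took 7.05% of counts in blank replicate 1 against 2.97% to 4.05% in the others, and Mt-nd4l 4.60% against 1.26% to 1.70%. The sums thus stood apart as well, whatever the split.

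**Figure D2:**
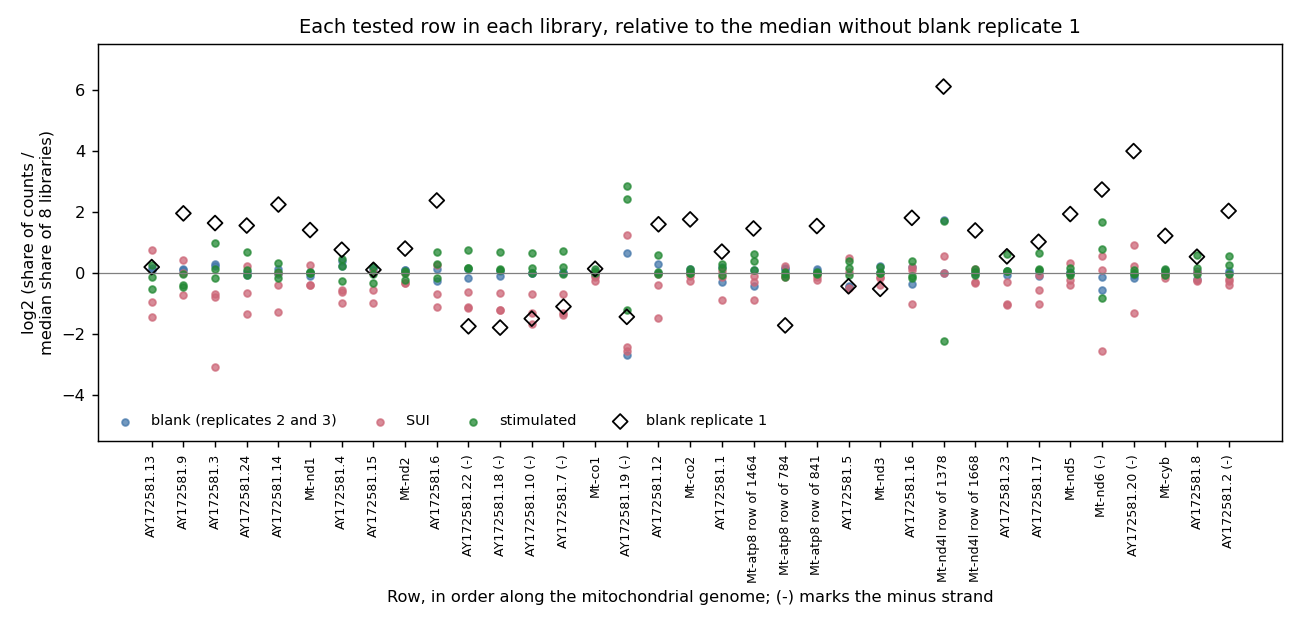
Each column is one of the 35 tested rows in order along the mitochondrial genome, and the y axis gives the log2 ratio of a library's share of counts to the median share of the 8 libraries other than blank replicate 1. Open diamonds mark blank replicate 1, which is above the rest for 23 rows, near the median for Mt-co1 and below the rest for 4 rows.

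Ratios between transcripts of 1 library do not depend on how libraries are scaled. Mt-co1 over Mt-co2, which encode neighbouring subunits of the same complex, had log2 values of 0.55, 2.09 and 2.01 in the blank libraries, 2.15, 2.14 and 2.17 in the SUI libraries, and 2.17, 2.19 and 2.17 in the stimulated libraries. Outside blank replicate 1 this ratio stayed between 4.02 and 4.56 on the linear scale, and in blank replicate 1 it was 1.46. Every SUI and stimulated library was above every blank library, also with blank replicate 1 left out. This ratio was singled out after its values were seen and was not tested. Mt-co1 made up 17.4% of the 13 protein-coding rows in blank replicate 1 and 29.0% to 34.3% in the others.

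Ratios of 9 kinds were tested across the 3 groups with an exact permutation test, in which the smallest possible p is 0.00357. In 7 of them blank replicate 1 lay outside the range of the other 8 libraries. The 1 ratio with an unadjusted p under 0.05 was that of the tRNA-sized rows to the 13 protein-coding rows, with log2 values of -8.82, -8.73 and -8.61 in the blank libraries, -9.67, -9.24 and -8.88 in the SUI libraries and -8.25, -8.69 and -8.58 in the stimulated libraries. All SUI libraries were below all blank and all stimulated libraries, and the last groups overlapped. The exact permutation test gave p = 0.00714, or 0.0643 after adjustment over the 9 ratios, and p = 0.0536 without blank replicate 1. The mean log2 ratio was -8.72 ± 0.11 (SD, n = 3) in the blank group, -9.26 ± 0.40 in the SUI group and -8.51 ± 0.23 in the stimulated group.

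The 2 rRNA-sized rows come from 1 precursor, and the ratio of the longer row AY172581.24 to the shorter row AY172581.9 was higher in the stimulated libraries. Its log2 values were 0.52, 0.84 and 0.76 in the blank libraries, -0.42, 0.72 and 0.97 in the SUI libraries and 2.09, 1.04 and 1.24 in the stimulated libraries, with no overlap of the stimulated group with either other group. The exact permutation test across the 3 groups gave p = 0.0679, adjusted 0.305, so this did not pass. Without SUI replicate 3 the same exact test gave p = 0.0179. The ratio of both rRNA-sized rows to the 13 protein-coding rows had overlapping groups, with an exact permutation p of 0.386.

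The 4 tested ratios among the mRNAs did not separate the groups. For Mt-nd6 over the other 12 protein-coding rows, a comparison of the minus with the plus strand, the mean log2 ratio was -14.93 ± 1.22, -15.75 ± 1.54 and -14.75 ± 1.19 in the blank, SUI and stimulated groups. The spread between replicates exceeded the differences, with an exact permutation p of 0.639. Mt-nd5 and Mt-cyb over Mt-nd1 and Mt-nd2, which compares the far with the near end of the plus-strand precursor, gave p = 0.896 by the exact test. Complex I rows over Mt-co1 and Mt-co2 gave p = 0.436 by the exact test, and the Mt-atp8 rows over Mt-co1 and Mt-co2 gave p = 0.407. The Mt-atp8 rows may include Co3 reads, so the latter ratio is not clearly ATP synthase over complex IV. Leaving out blank replicate 1, the exact p of these 4 ratios ranged from 0.225 to 0.850.

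**Figure D3:**
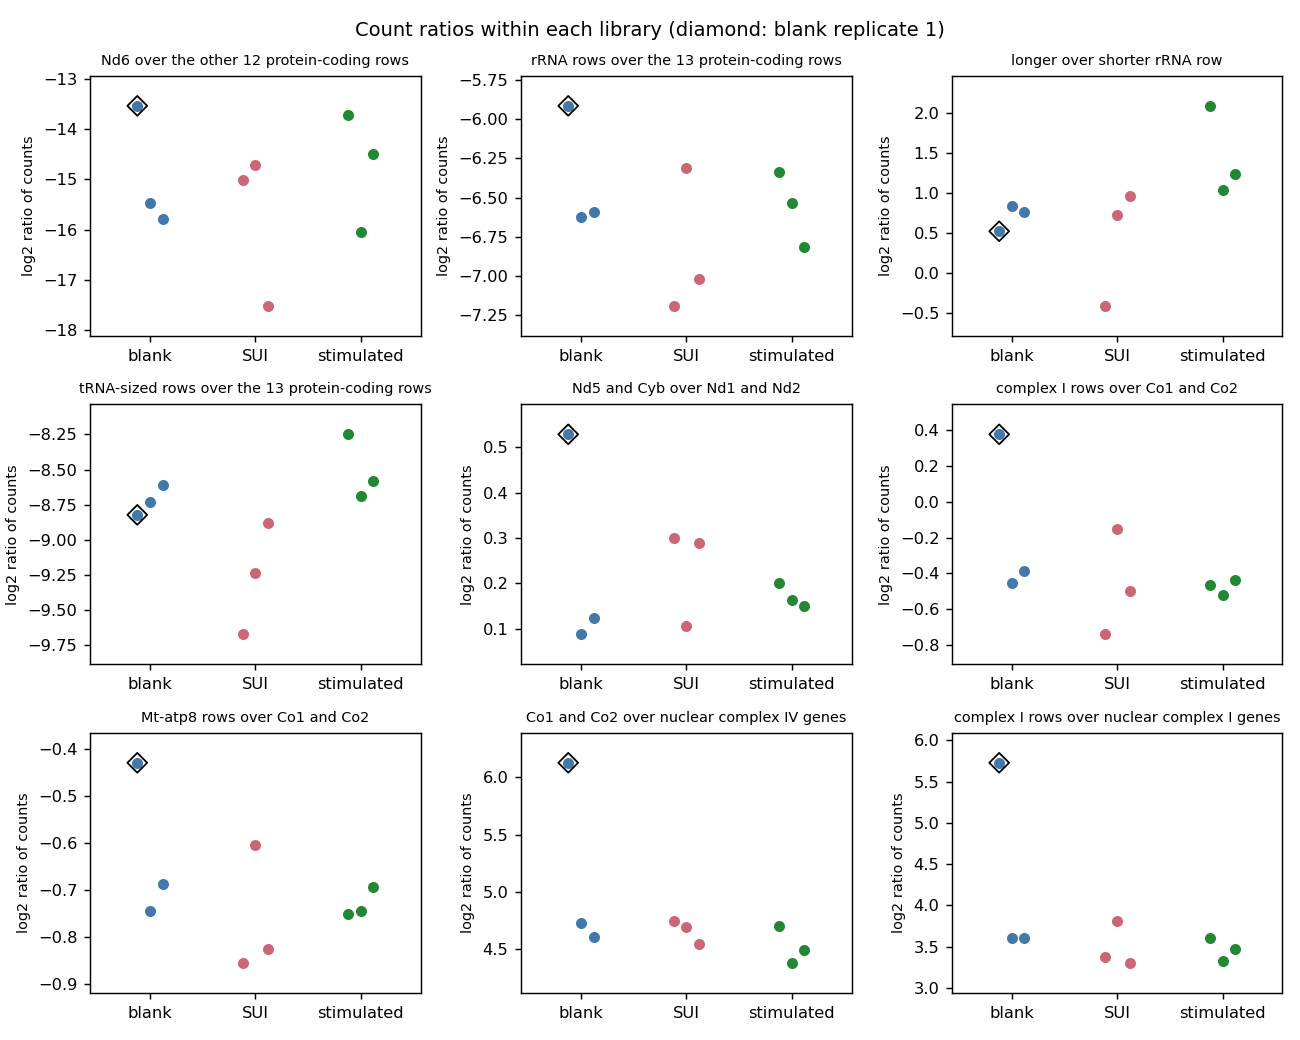
The 9 panels give the log2 ratio of summed counts (y axis) in each library by group (x axis) for the 9 ratios tested, with a diamond around blank replicate 1. The SUI points of the tRNA-sized ratio lie below all others, between -9.67 and -8.88, and the stimulated points of the rRNA ratio lie above all others, between 1.04 and 2.09.

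Between SUI and blank libraries, no mitochondrial row passed edgeR's quasi-likelihood test at a Benjamini-Hochberg adjusted p of 0.05 over the 16256 rows tested, and neither did any other row (0%). Of the 35 members tested, 15 had an unadjusted p under 0.05, all lower in SUI libraries, against 5.34% of all rows. DESeq2 called 2 members, both lower, against 0.855% of all rows: AY172581.3 and AY172581.4. Both were classed as tRNA-sized, though AY172581.4 is the longest of that class at 137 bases. The median log2 fold change of the members was -1.16, beside 0.01 over all rows tested, and -0.30 without blank replicate 1, when 5 members had an unadjusted p under 0.05. Without SUI replicate 1 it was 2 members and without SUI replicate 3 it was 9, and 6 in a fit of the 6 libraries compared. The 5.34% belongs to the fit of all 9 libraries. For the refits the share of all rows is not given, so their counts of members stand without a background. The CPM values of 8 members did not overlap between the groups, all lower in SUI, against 7.77% of all rows, and without blank replicate 1 it was 12 members against 12.8%. The 8 were Mt-nd2, Mt-co2, the 841-base Mt-atp8 row, Mt-nd3 and the tRNA-sized rows AY172581.3, AY172581.4, AY172581.23 and AY172581.2.

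Mt-co2 shows how far the size of the SUI difference rested on blank replicate 1. Its level was 51959, 11875 and 11511 CPM in the blank libraries, 8780, 10596 and 9944 in the SUI libraries and 13981, 10418 and 11539 in the stimulated libraries. Every SUI library was below every blank library, and SUI and stimulated libraries overlapped in CPM. By share of all counts the SUI libraries reached at most 1.1376% and the stimulated libraries at least 1.1381%, so that overlap depended on the scaling. The log2 fold change of SUI over blank was -1.36 ± 0.54 (SE, edgeR adjusted p = 0.560) with all libraries and -0.25 ± 0.19 (edgeR adjusted p = 0.872) without blank replicate 1. Mt-nd2, of complex I, was at 27998, 12148 and 12162 CPM in the blank libraries and 7349, 11905 and 9887 in the SUI libraries, and its log2 fold change went from -0.84 ± 0.37 to -0.31 ± 0.25 without blank replicate 1. Mt-nd1, Mt-cyb, Mt-nd5 and the 1668-base Mt-nd4l row overlapped between the groups in CPM. Without blank replicate 1 their log2 fold changes lay between -0.14 and -0.07. By share of all counts Mt-cyb did not overlap, at 1.34% to 1.45% in the SUI and 1.50% to 3.45% in the blank libraries.

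The Mt-atp8 rows, whose listed coordinates are those of ATP synthase subunits, differed among themselves. The 784-base row has the length of the stretch where Co3 of complex IV lies, so which gene each row counts is uncertain. The 841-base row was at 58557, 14853 and 15556 CPM in the blank libraries, 10534, 14830 and 13167 in the SUI libraries and 17225, 13762 and 14761 in the stimulated libraries. SUI was below blank without overlap, with SUI replicate 2 close to blank replicate 2, and the log2 fold change went from -1.21 ± 0.50 to -0.23 ± 0.20 without blank replicate 1. The 1464-base row was at 30832, 8309 and 5931 CPM in the blank libraries, 5992, 6785 and 4702 in the SUI libraries and 14437, 8249 and 11196 in the stimulated libraries. Stimulated libraries were all above SUI libraries for the 1464-base row, 0.95 ± 0.55 on the log2 scale (edgeR adjusted p = 0.720). The 784-base row, in contrast, overlapped in each pair of groups, at 5559, 13993 and 14390 CPM in the blank libraries, 9795 to 15985 in the SUI libraries and 12569 to 13972 in the stimulated libraries. Blank replicate 1 was the lowest of all for the 784-base row. Its log2 fold change over blank was 0.19 ± 0.36 for SUI and 0.23 ± 0.36 for stimulated libraries, and without blank replicate 1 both signs turned, to -0.13 ± 0.22 and -0.11 ± 0.22, with stimulated libraries then below blank without overlap.

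Mt-nd6, a complex I subunit, was at 36.7, 3.54 and 2.70 CPM in the blank libraries, 3.41, 6.003 and 0.730 in the SUI libraries and 14.7, 2.16 and 7.14 in the stimulated libraries. All groups overlapped, and the SD relative to the mean was wider in each group than for every plus-strand protein-coding row other than the 1378-base Mt-nd4l row. The log2 fold change of SUI over blank was -2.07 ± 1.11 (edgeR adjusted p = 0.612) with all libraries and 0.14 ± 0.90 without blank replicate 1, so its sign rested on that library.

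Mt-nd3, a small complex I subunit, had nearly the same log2 fold change of SUI over blank with and without blank replicate 1. It was at 1335, 1560 and 1372 CPM in the blank libraries, 1004, 1086 and 1323 in the SUI libraries and 1599, 1504 and 1424 in the stimulated libraries. SUI was below blank and below stimulated without overlap, with SUI replicate 3 close to the lowest blank library. That separation from blank depended on the scaling: by share of all counts blank replicate 1 was below every other library at 0.0992%, beside 0.109% to 0.130% in the SUI libraries and 0.144% and 0.166% in the other blank libraries. The log2 fold change was -0.32 ± 0.21 for SUI over blank (edgeR adjusted p = 0.649), -0.36 ± 0.17 without blank replicate 1, and 0.41 ± 0.21 for stimulated over SUI (edgeR adjusted p = 0.678). None of these passed the test.

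Between stimulated and SUI libraries, again 0 of 35 members were called by edgeR, against 0.0123% of all rows. An unadjusted p under 0.05 was reached by 7 members, all higher in stimulated libraries, against 5.23% of all rows. Without blank replicate 1 it was 11 members, and without stimulated replicate 1 it was 4. The 5.23% belongs to the fit of all 9 libraries, and the share of all rows in these refits is not given. DESeq2 called 4 members, all higher, against 0.941% of all rows. The members' median log2 fold change was 0.51 beside 0.02 over all rows, and 33 of 35 were positive, while without SUI replicate 1 the median was 0.33 and 28 were positive. The groups did not overlap for 12 members, all higher with stimulation, against 9.52% of all rows. Among the 12 were Mt-co1, Mt-nd3, the 1464-base Mt-atp8 row and 9 tRNA-sized rows. Mt-co1 was at 38842, 46548 and 44627 CPM in the SUI libraries and 62847, 47554 and 52072 in the stimulated libraries, 0.32 ± 0.27 on the log2 scale (edgeR adjusted p = 0.831). The groups were thus separate for Mt-co1, by less than the spread within either group.

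The 4 members called by DESeq2 were neighbours on the minus strand, in the stretch between Mt-nd2 and Mt-co1: AY172581.22 (5010 to 5078), AY172581.18 (5081 to 5152), AY172581.10 (5185 to 5252) and AY172581.7 (5256 to 5321). Vertebrate mitochondrial genomes carry a cluster of tRNA genes there, with the start of light-strand replication inside it, and 32 bases without a row lie between AY172581.18 and AY172581.10. AY172581.7 was at 40.5, 62.3 and 62.0 CPM in the blank libraries, 20.3, 25.1 and 41.7 in the SUI libraries and 119.5, 58.0 and 75.4 in the stimulated libraries. AY172581.10 was at 30.4, 59.5 and 60.6 CPM in the blank libraries, 19.7, 19.8 and 41.2 in the SUI libraries and 111.6, 57.8 and 71.6 in the stimulated libraries. For both rows stimulated libraries were above SUI libraries without overlap, and stimulated replicate 1 was the highest of all. As the use of strand in counting is not given, the 4 rows may hold reads of plus-strand precursors across this stretch.

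The log2 fold change of stimulated over SUI was 1.54 ± 0.35 for AY172581.7 and 1.58 ± 0.40 for AY172581.10, 2.91-fold and 2.99-fold. It was 1.47 ± 0.40 for AY172581.18 and 1.44 ± 0.39 for AY172581.22. The edgeR adjusted p of the 4 rows, in this order, were 0.315, 0.367, 0.425 and 0.425, and the DESeq2 adjusted p were 0.00673, 0.0157, 0.0367 and 0.0411, so the call depended on the tool. Leaving out each library in turn, the log2 fold changes of the 4 rows ranged from 1.11 to 2.02, and the edgeR adjusted p from 0.225 to 0.860. The 4 rows were described together after their values were seen. They adjoin on 1 strand, so they are not independent of each other.

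**Figure D4:**
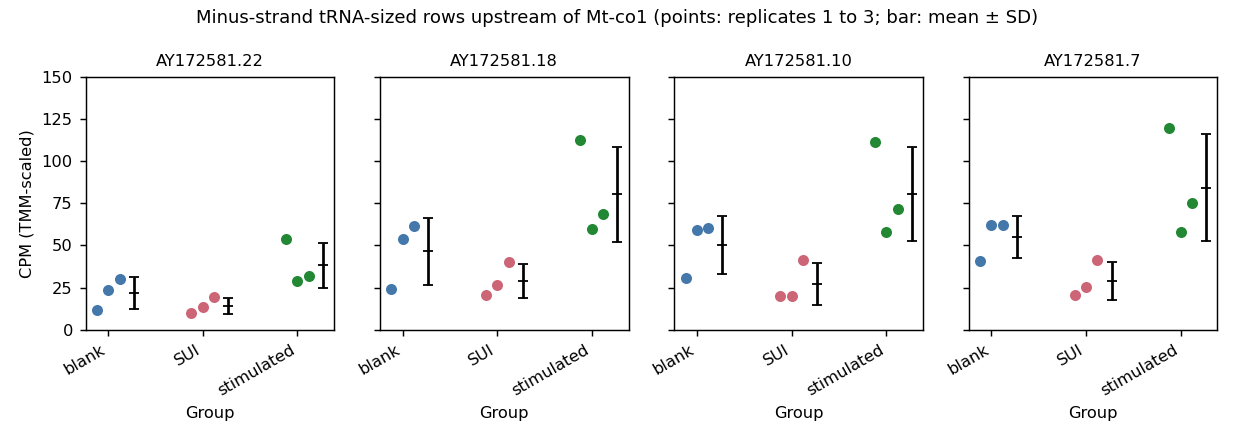
Points give the TMM-scaled CPM (y axis) of the 4 minus-strand tRNA-sized rows upstream of Mt-co1 in each library by group (x axis), and black bars give the mean ± SD of 3 libraries. The stimulated libraries lie above the SUI libraries in all 4 panels, from 57.8 to 119.5 CPM against 19.7 to 41.7 for AY172581.10 and AY172581.7.

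Blank replicate 1 was low for the same 4 rows, as it was for the 784-base Mt-atp8 row and Mt-nd3, while 23 of the 35 tested rows were higher there than elsewhere. For these 4 it was 2.13-fold to 3.43-fold below the median of the others by share of counts, and below all others for AY172581.22 and AY172581.18. The log2 fold changes of SUI over blank were -0.62 to -0.92 with all libraries and -0.91 to -1.15 without blank replicate 1, when SUI was below blank without overlap for all 4 rows. The edgeR adjusted p without that library ranged from 0.711 to 0.738. Stimulated over blank they were 0.62 to 0.82 with all libraries and 0.40 to 0.49 without blank replicate 1, with overlapping groups both ways. The 4 rows together made up 11.1% of the tRNA-sized counts in blank replicate 1, 31.9% to 50.9% in the SUI libraries and 52.9% to 61.5% in the other 5 libraries.

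The remaining tRNA-sized rows followed several courses. AY172581.15 (3835 to 3903, plus strand), the row of this size with the highest mean count, was at 99.7, 69.2 and 75.03 CPM in the blank libraries, 27.1, 70.1 and 48.4 in the SUI libraries and 89.0, 50.2 and 67.9 in the stimulated libraries, with overlap of SUI with both. AY172581.4 (3695 to 3831, plus strand), called lower in SUI by DESeq2, was at 18.5, 8.83 and 10.1 CPM in the blank libraries, 3.14, 5.54 and 5.47 in the SUI libraries and 10.6, 6.17 and 11.2 in the stimulated libraries. SUI libraries were lowest throughout for AY172581.4, with a log2 fold change over blank of -1.40 ± 0.37 (edgeR adjusted p = 0.454). It shares 71 of its 137 bases with the minus-strand row AY172581.21. AY172581.3 (1026 to 1093, plus strand, between the rRNA-sized rows) was at 6.09, 1.60 and 1.71 CPM, 0.646, 0.172 and 0.946 CPM, and 3.25, 1.46 and 1.32 CPM in the blank, SUI and stimulated libraries. That row was low, with 19 to 426 counts a library, and its log2 fold change of SUI over blank was -2.40 ± 0.73 (edgeR adjusted p = 0.524). The rows AY172581.21, with 1 to 5 counts a library, and a second row called AY172581.17, with 1 count in each library, were not tested.

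Between stimulated and blank libraries 0 members were called by edgeR, against 0.00615% of all rows, and 0 by DESeq2, against 0.129%. An unadjusted edgeR p under 0.05 was found for 2 members, both lower, against 1.81% of all rows. The members' median log2 fold change was -0.56, beside 0.04 over all rows, and 0.21 without blank replicate 1, when 0 members had an unadjusted p under 0.05. The 1.81% belongs to the fit of all 9 libraries, and the share of all rows without blank replicate 1 is not given. Without overlap only the shorter rRNA-sized row AY172581.9 was lower with stimulation, against 4.72% of all rows. Without blank replicate 1 the groups were separate for AY172581.9 and the 784-base Mt-atp8 row, both lower, against 9.58% of all rows, and for 4 tRNA-sized rows that were higher (AY172581.5, AY172581.17, AY172581.20 and AY172581.2), against 12% of all rows. AY172581.9 was at 2965, 581 and 586 CPM in the blank libraries, 443, 764 and 359 in the SUI libraries and 462, 513 and 437 in the stimulated libraries. Stimulated and blank differed by -1.55 ± 0.61 on the log2 scale (edgeR adjusted p = 0.898) and by -0.33 ± 0.30 without blank replicate 1. The longer row AY172581.24 was at 4253, 1038 and 990 CPM, 332, 1259 and 702 CPM, and 1974, 1057 and 1031 CPM in the blank, SUI and stimulated libraries, with overlap in each pair of groups.

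The nuclear genes for subunits of the respiratory chain and ATP synthase were, as a sum, low in blank replicate 1. Their 75 matched rows took 0.840% of counts in blank replicate 1 and 1.58% to 1.92% in the others. By share of counts 61 of the 73 tested genes were below all 8 others there and 8 were within their range. The other 4 were above them: Ndufb4, Ndufa5 and Ndufc2 of complex I and Atp5pb of ATP synthase. Of all tested nuclear rows 46.8% were below and 9.32% above all 8 others. On the TMM scale 44 of the 73 genes were below, 20 within and 9 above. Ndufb4 was at 344 CPM in blank replicate 1 and Atp5pb at 766. The 13 mitochondrial protein-coding rows were thus 38.5 times the nuclear sum in that library and 8.08 to 10.2 times in the other 8. The log2 ratio of Mt-co1 and Mt-co2 to the nuclear complex IV genes was 6.13, 4.73 and 4.60 in the blank libraries, 4.74, 4.70 and 4.55 in the SUI libraries and 4.70, 4.38 and 4.49 in the stimulated libraries (exact permutation p = 0.246). For mitochondrial over nuclear complex I it was 5.73 in blank replicate 1 and 3.30 to 3.81 in the others (exact permutation p = 0.232). Without blank replicate 1 the exact p of these 2 ratios were 0.386 and 0.704.

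**Figure D5:**
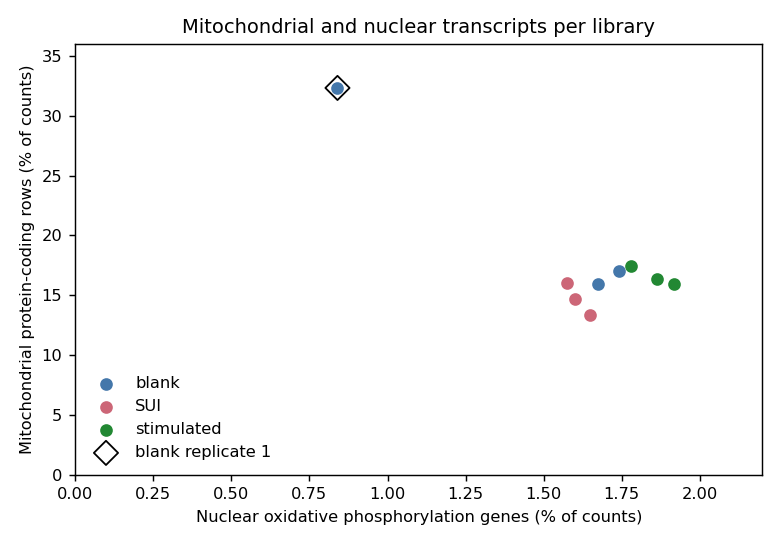
Each point is a library, with the share of counts on nuclear oxidative phosphorylation genes (%, x axis) and on the 13 mitochondrial protein-coding rows (%, y axis). Blank replicate 1 lies at 0.840% and 32.3%, and the other 8 lie between 1.58% and 1.92% and between 13.3% and 17.5%.

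Nuclear subunit genes were mostly higher in stimulated than in SUI libraries, and none was called by edgeR or DESeq2. For complex I 32 of 33 tested genes had a positive log2 fold change (median 0.32), for complex II 4 of 4 (0.28), for complex III 8 of 8 (0.32), for complex IV 10 of 11 (0.50) and for ATP synthase 17 of 17 (0.39), beside a median of 0.02 over all rows. An unadjusted edgeR p under 0.05 was reached by 1, 0, 1, 5 and 4 of them, all higher with stimulation, where 5.23% of all rows were; for complex I that is 1 of 33. Cox5b, a complex IV subunit, was at 128, 149 and 162 CPM in the SUI libraries and 212, 216 and 205 in the stimulated libraries, a log2 difference of 0.53 ± 0.18 (edgeR adjusted p = 0.513). Uqcrq, of complex III, was at 71.8, 65.0 and 94.9 CPM in the SUI libraries and 138, 129 and 132 in the stimulated libraries, 0.78 ± 0.25 (edgeR adjusted p = 0.500). Both genes were separate between these groups without passing the test. In SUI over blank the medians of these 5 lists lay between -0.06 and 0.11, and without blank replicate 1 between -0.18 and -0.09.

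The machinery that makes and handles mitochondrial RNA was tested in the same fit, and again none of it was called in any of the 3 comparisons by edgeR or DESeq2. Of 16 genes of mitochondrial transcription and replication, 12 were lower in stimulated than in SUI libraries (median -0.26), with 0 at an unadjusted p under 0.05. Polrmt, the mitochondrial RNA polymerase, was at 4.82, 18.9 and 16.9 CPM in the blank libraries, 22.9, 23.4 and 24.8 in the SUI libraries and 16.0, 14.9 and 20.5 in the stimulated libraries. SUI libraries had the highest Polrmt levels, above both other groups without overlap, and blank replicate 1 the lowest, with a log2 fold change of SUI over blank of 0.80 ± 0.41 (edgeR adjusted p = 0.610), or 0.42 ± 0.16 (edgeR adjusted p = 0.750) without blank replicate 1. Tfam, which packages mitochondrial DNA and starts its transcription, was at 41.3 to 57.5 CPM in blank, 42.6 to 47.1 in SUI and 38.0 to 49.7 in stimulated libraries, with full overlap. Ssbp1, the mitochondrial single-strand DNA binding protein, was at 48.5 CPM in blank replicate 1 and 9.004 to 11.9 in the other 8.

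RNA processing and stability genes had 28 members tested, 22 of them higher in SUI than in blank libraries (median 0.18, and 0.09 without blank replicate 1). Pde12, which trims poly(A) tails of mitochondrial mRNAs, was at 1.77, 2.46 and 2.04 CPM in the blank libraries, 3.29, 3.88 and 3.84 in the SUI libraries and 2.74, 2.15 and 2.09 in the stimulated libraries. SUI was above both other groups for Pde12, with a log2 fold change of 0.81 ± 0.25 over blank (edgeR adjusted p = 0.524) and -0.66 ± 0.25 for stimulated over SUI (edgeR adjusted p = 0.551). Lrpprc, which stabilises mitochondrial mRNAs, was at 152 ± 18.2, 155 ± 21.8 and 153 ± 24.7 CPM (SD, n = 3) in the 3 groups. Of 30 mitochondrial ribosomal protein genes, Mrpl45 had the same course as Pde12, at 26.1, 32.3 and 35.5 CPM in the blank libraries, 49.4, 50.6 and 49.4 in the SUI libraries and 39.6, 34.1 and 27.1 in the stimulated libraries. Mrpl45, a protein of the large subunit, had a log2 fold change of 0.67 ± 0.20 for SUI over blank (edgeR adjusted p = 0.504).

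Regulators of mitochondrial biogenesis and markers of mitochondrial mass gave no call either. Ppargc1a, a coactivator of mitochondrial biogenesis, was at 14.7, 6.17 and 7.66 CPM in the blank libraries, 4.46, 9.13 and 11.5 in the SUI libraries and 15.4, 9.03 and 11.7 in the stimulated libraries, all overlapping. Ppargc1b, its relative, was at 11.0, 5.36 and 2.47 CPM in the blank libraries, 0.646, 3.09 and 2.09 in the SUI libraries and 2.90, 4.00 and 4.70 in the stimulated libraries, with a log2 fold change of SUI over blank of -1.68 ± 0.62 (edgeR adjusted p = 0.552). Blank and SUI overlapped for Ppargc1b, and without blank replicate 1 the log2 fold change was -1.01 ± 0.59. Cs, citrate synthase, a common measure of mitochondrial content, was at 461 ± 111, 505 ± 39.2 and 564 ± 39.8 CPM (SD, n = 3) in the blank, SUI and stimulated groups. Cs in blank replicate 1 was the lowest of all libraries at 333 CPM, beside the highest mitochondrial share. Other markers of mitochondrial mass went both ways there on this TMM scale. Hspa9, Cycs and Timm44 were highest in blank replicate 1, at 820, 633 and 62.0 CPM. Tomm40 and Phb1 were lowest in it, at 9.37 and 56.5 CPM.

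Other cell types were followed by marker sums beside these results. The 7 fibroblast and tendon markers summed to 1205 to 1514 CPM in the blank libraries. They summed to 470 to 850 in the SUI libraries and 882 to 3061 in the stimulated libraries. On this TMM scale SUI was below both other groups. The TMM factor was 0.744 for blank replicate 1 and 1.296 for SUI replicate 1. On library totals SUI replicate 1 lay above blank replicate 1 and stimulated replicate 1, so the separation depended on the scaling. The 7 slow-fibre markers summed to 9478 to 11621, 5654 to 12080 and 7528 to 13196 and overlapped. Fast-fibre markers, of which Myh4 and Atp2a1 were not matched, summed to 224211 in blank replicate 1 and 87008 to 148382 in the others. Leukocyte markers, 5 in all, summed to 110 to 207 in the blank libraries, 92.7 to 107 in the SUI libraries and 59.3 to 305 in the stimulated libraries. On the TMM scale SUI was thus below blank. On library totals the SUI libraries lay above blank replicate 1 for these markers. The endothelial, smooth muscle, nerve, adipocyte and erythroid lists overlapped in each pair of groups. The part of any of these in the mitochondrial differences was not tested.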

How the data were processed

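The members and gene lists were chosen with earlier results of these data known. The deposited expected counts, made by the authors with RSEM 1.3.1 and Bowtie2 on mRatBN7.2 per the submitters' processing notes (which also name DESeq2 1.4.5), are whole numbers in the files. FPKM values were deposited by the authors, per the file headers, and served for shares, order, row lengths (count over FPKM, for rows with at least 100 counts) and alternatives. Groups came from the sample titles, and all 9 libraries carry 1 batch label.

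Counts were filtered with filterByExpr (16256 rows, 35 members) and TMM-scaled. The test was edgeR 4.0.16's quasi-likelihood F test (R 4.3.3, robust, all 9 libraries in 1 fit) with Benjamini-Hochberg adjustment at 0.05. The SE is the size of the fold change over the square root of F. Shares use library totals, and marker sums use TMM-scaled CPM. Ratios were compared by exact permutation (F statistic across 3 groups); 3 against 3 cannot go below p = 0.1, so pairs were not tested. In simulated data of 16256 rows, edgeR recovered 3 to 8 of 100 changes of 2-fold and 47 to 57 of 100 of 4-fold. Of 187 pathway genes, 179 matched a row and 177 were tested.

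All protein-coding and rRNA-sized rows, the 3 tRNA-sized rows with the highest mean count and called ones were to be named, with up to 3 members of each list by smallest p and Ppargc1a, Tfam, Polrmt, Lrpprc and Cs. AY172581.20, AY172581.22 and AY172581.18 were added with their values in view. The alternatives tried were DESeq2 1.42.0 and its size factors, library totals only, scaling from nuclear rows, no filter, a mean CPM of at least 1, only the 6 libraries compared, a replicate block, limma 3.58.1 on log2 FPKM with pseudocounts of 1 and 0.1, 1 row for each identifier, and leaving out each library. The depth allows 0.0203 to 0.0590 CPM at 3 counts, for counting error only.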

Additional observations from a re-analysis of the deposited data

How the results depend on the processing

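The 0 members called by edgeR stayed at 0 under each edgeR and limma alternative and without any 1 library, and DESeq2 called 2 in SUI over blank and 4 in stimulated over SUI. The ratio of tRNA-sized to protein-coding rows, at p = 0.00714 by the exact permutation test, ranged from 0.00714 to 0.0536 with 1 library left out (0.0536 without blank replicate 1, 0.050 without blank replicate 2 or stimulated replicate 1). The rRNA ratio ranged from 0.0179 to 0.329 by the exact test, and Mt-co1 with Mt-co2 over nuclear complex IV from 0.0393 (without blank replicate 3) to 0.529. Of 19 named rows, none of them called by edgeR, leaving out 1 library turned the sign of the log2 fold change for 2 in SUI over blank, 4 in stimulated over SUI and 10 in stimulated over blank. In SUI over blank these were Mt-nd6 (-2.81 to 0.14) and the 784-base Mt-atp8 row (-0.13 to 0.40), both without blank replicate 1. The 784-base row also turned without SUI replicate 2 (-0.00531). Without stimulated replicate 2, Mt-co1 turned in stimulated over blank (0.00145). In stimulated over SUI they were Mt-nd5 (-0.0248 to 0.51), AY172581.9 (-0.36 to 0.23), the 784-base Mt-atp8 row (-0.11 to 0.23) and the 1378-base Mt-nd4l row (-2.65 to 1.49). In stimulated over blank all 10 turned without blank replicate 1: Mt-nd1 (-1.14 to 0.12), Mt-co1 (-0.22 to 0.14), Mt-co2 (-1.41 to 0.0154), the 1464-base (-0.79 to 0.65) and 784-base (-0.11 to 0.45) Mt-atp8 rows, the 1668-base Mt-nd4l row (-1.10 to 0.12), Mt-nd5 (-1.54 to 0.11), Mt-nd6 (-1.61 to 1.33), Mt-cyb (-0.97 to 0.0797) and AY172581.24 (-1.0004 to 0.40). On log2 FPKM with pseudocounts of 1 and 0.1, signs turned for Mt-co1 (0.00904 with both) and the 1464-base row (0.00734 and 0.00737) in stimulated over blank, and for the 784-base row (-0.0772 with both) and the 1378-base row (-0.34 and -0.38) in stimulated over SUI. With library totals only they turned for Mt-co1 in stimulated over blank (0.00562) and the 784-base row in stimulated over SUI (-0.0625). The SUI minus blank difference of the Mt-atp8 ratio was 0.02 on FPKM and -0.14 on counts. The cause of these was not tested.

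Scaled by library totals alone, the middle log2 fold change over all rows moved to 0.19, -0.11 and 0.09 in the 3 comparisons, and the members' medians were -0.88, 0.41 and -0.42. Same-numbered libraries correlated at -0.22 to 0.11 in their deviations from the group means, and differently numbered ones at -0.18 to 0.21. With 3 libraries a group these values cannot settle if same-numbered libraries were paired. The main fit treated them as unpaired. With a replicate block 0 members were called in each comparison, and 5, 7 and 0 had an unadjusted p under 0.05, against 15, 7 and 2 without the block. The share of all rows with the block is not given. Depth was high for mRNAs and limits rows such as AY172581.21, AY172581.19 and AY172581.13, with 29 counts or fewer in most libraries.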
